A study of Homo sapiens with 4 samples.

Results

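The HOXD cluster was examined in C4-2B, a human prostate adenocarcinoma line that expresses the androgen receptor, and in C4-2BER, the neuroendocrine-like line obtained from it by keeping the cells in enzalutamide, an antagonist of the androgen receptor. All 9 HOXD genes annotated by GENCODE on hg38 chromosome 2 were members, of 19689 protein-coding genes in all, and every interval from 50 kb before the first to 50 kb after the last of them was taken (176042721 to 176240907, 198187 bp). Open chromatin was mapped by ATAC-seq, a method that lets a transposase cut and tag accessible DNA. Each line had 2 libraries, which the authors merged before calling peaks, so no value belongs to a single library and no difference between the lines was tested. C4-2BER is a derivative of C4-2B grown under drug, so derivation and drug exposure cannot be told apart. The label of neuroendocrine-like cells could not be checked by expression here. The promoters of KLK3, an androgen receptor target, and of CHGA, a neuroendocrine marker, each carried a peak in both lines. The KLK3 peak stood at rank percentiles 80.9 (C4-2B) and 42.3 (C4-2BER) of its list, and the CHGA peak at 79.3 and 81.9.

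HOX genes encode homeodomain transcription factors that give cells their position along the body axis. They lie in 4 clusters, and the order of genes along the chromosome follows the order in which they are used from head to tail. The HOXD cluster patterns limbs, digits and the urogenital tract. HOXD13 lies at its posterior end and HOXD1 at its anterior end. HOX clusters that are not in use are typically held closed by Polycomb repressors, and the members in use are set apart by CTCF-bound boundaries.

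The reads behind each peak summit were recovered from the deposited fold and p-value, and a genome-wide background of 2.24 and 1.87 reads per 200 bp gave a merged C4-2B library 1.2 times as deep as C4-2BER. C4-2B reads are therefore also given after division by this ratio. Intervals of the lists that overlap are called 1 site, and a site without an interval in the other list is called line-only. The strength of a peak is also given as its rank percentile by p-value within its own list.

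The cluster held more listed open sites in C4-2BER than in C4-2B. The C4-2B list had 14 intervals covering 7311 bp of the region, and the C4-2BER list had 22 intervals covering 11068 bp, although the whole C4-2BER list was the shorter, with 118728 intervals against 149676. When the genome was cut into stretches as long as this region, C4-2BER had more intervals in 16.5% of the 14316 stretches with a peak. It led by at least as many intervals as here in 0.126% of them. Such a lead was not particular to HOXD among the HOX clusters, taken with the same flanks. The HOXA region (207099 bp) had 19 C4-2B and 27 C4-2BER intervals, and HOXB (300225 bp) had 35 and 45. HOXC (217200 bp) had 33 in each list. The open sites were of middling strength in both lines, with median rank percentiles of 52.4 (C4-2B) and 51.1 (C4-2BER). The strongest summit of an interval held 12 to 67 C4-2B reads or 13 to 87 C4-2BER reads.

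The intervals formed 22 sites, of which 11 were shared, 9 were C4-2BER-only and 2 were C4-2B-only. C4-2BER-only sites were thus 9 of 22, against 14.3% of sites genome-wide, and C4-2B-only sites 2 of 22, against 32.8%. Counted within each list, C4-2BER-only intervals were 9 of 22, against 20.8% of the whole list, and C4-2B-only intervals were 2 of 14, against 37.7% of the whole list. With so few intervals these shares are imprecise (shared part 59.1%, Wilson 95% interval 38.7 to 76.7, for C4-2BER and 85.7%, 60.1 to 96.0, for C4-2B). The Wilson interval counts neighbouring intervals, such as those at the HOXD9 promoter, as separate draws, so it is likely too narrow. The position of the sites was uneven. All 4 intervals of each line outside the cluster lay on the side of EVX2, the even-skipped-like homeobox gene next to HOXD13, and the 50 kb beyond HOXD1 held 0 in either list. Of the 9 C4-2BER-only sites, 8 lay between the HOXD9 promoter and the HOXD3 promoter.

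**Figure D1:**
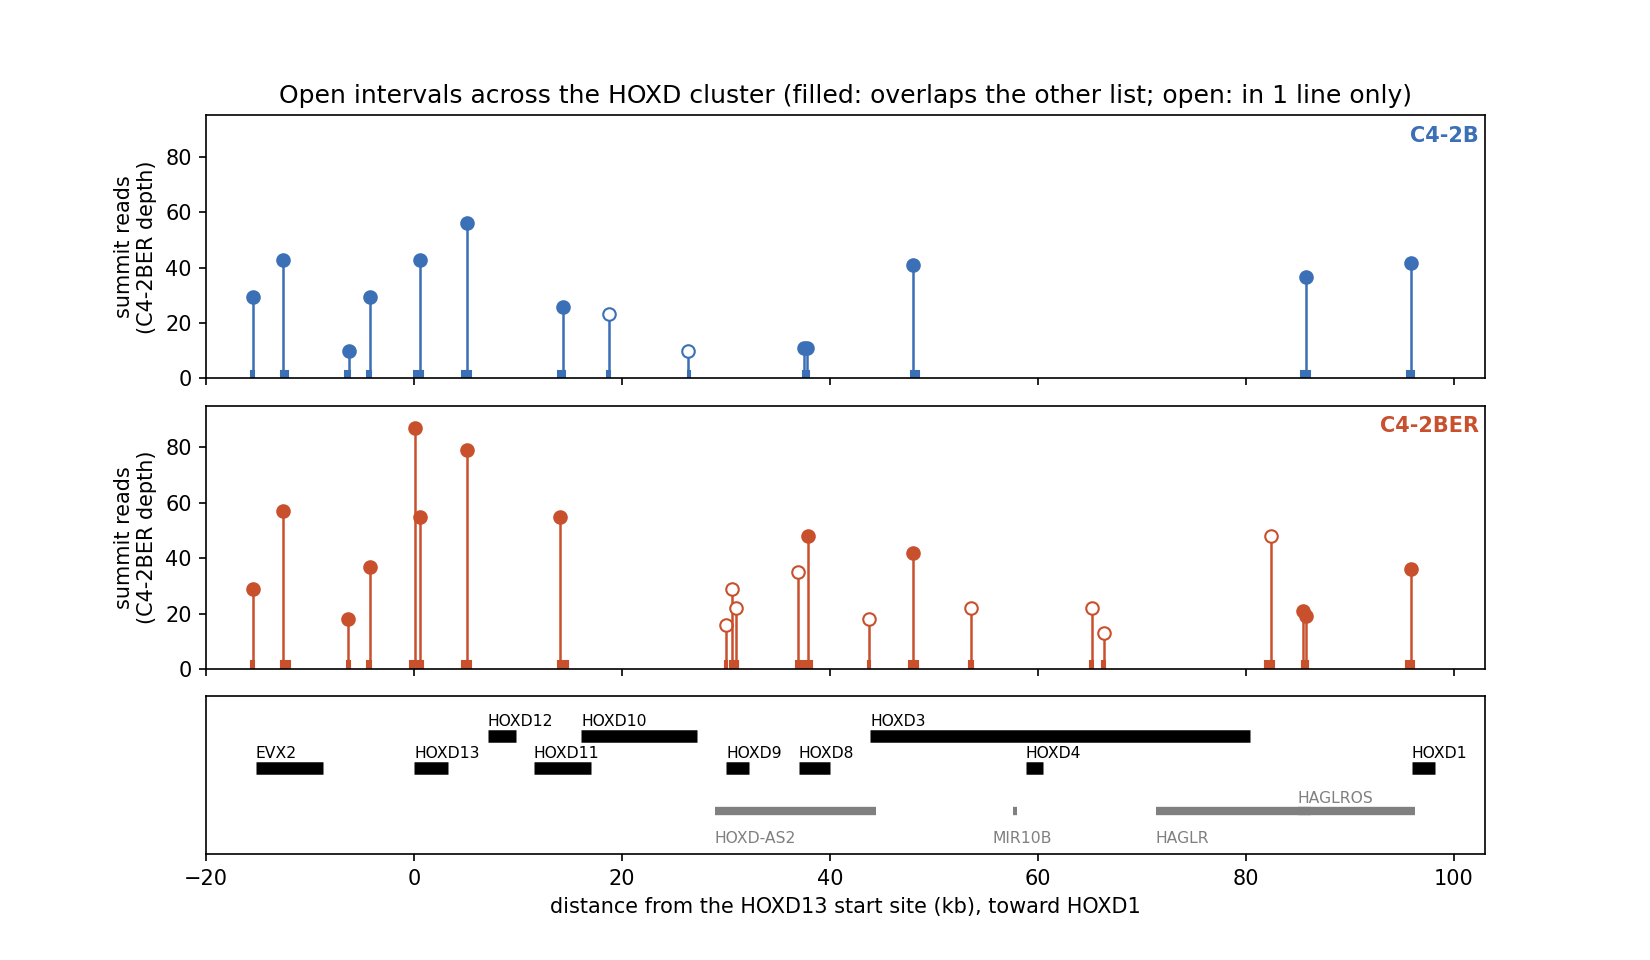
Each stem is an interval of the merged list of a line, placed by its strongest summit along the x axis (kb from the HOXD13 start site) with its summit reads at C4-2BER depth on the y axis; bars at the base are the interval extents. Sites on the HOXD13 side appear in both lines, and of the 9 C4-2BER-only sites 8 lie between HOXD9 and HOXD3.

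At the level of promoters, taken as 2000 bp either side of any start site of a coding transcript, 5 members had a peak in both lists, HOXD9 and HOXD3 had one in C4-2BER only, and HOXD10 and HOXD4 had none. No member had a peak in C4-2B only. Over all protein-coding genes, 77.7% carried such a peak in both lines, 3.39% in C4-2BER only, 2.83% in C4-2B only and 16% in neither. The strongest promoter peak ranked higher in C4-2BER for 6 of the 7 members with a peak, against 60.1% of 16529 genes, and higher by at least 10 percentile points for 5, against 13.5%. None ranked lower by 10 points, against 7.05%. The median difference over the 7 was 24.0 points, and over all those genes it was 0.604. A gene without a peak in a list was placed at 0 there. HOXD9 and HOXD3 entered only through their C4-2BER peaks, so they ranked higher and covered more bases by construction. The members with a peak in both lists, HOXD13, HOXD12, HOXD11, HOXD8 and HOXD1, changed by 24.0, 8.06, 18.7, 61.5 and −6.19 points. Promoter windows of the 7 held more covered bases in C4-2BER in every case, against 54.4% of genes, although by 5 bp at HOXD12 (361 and 366 bp).

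**Figure D2:**
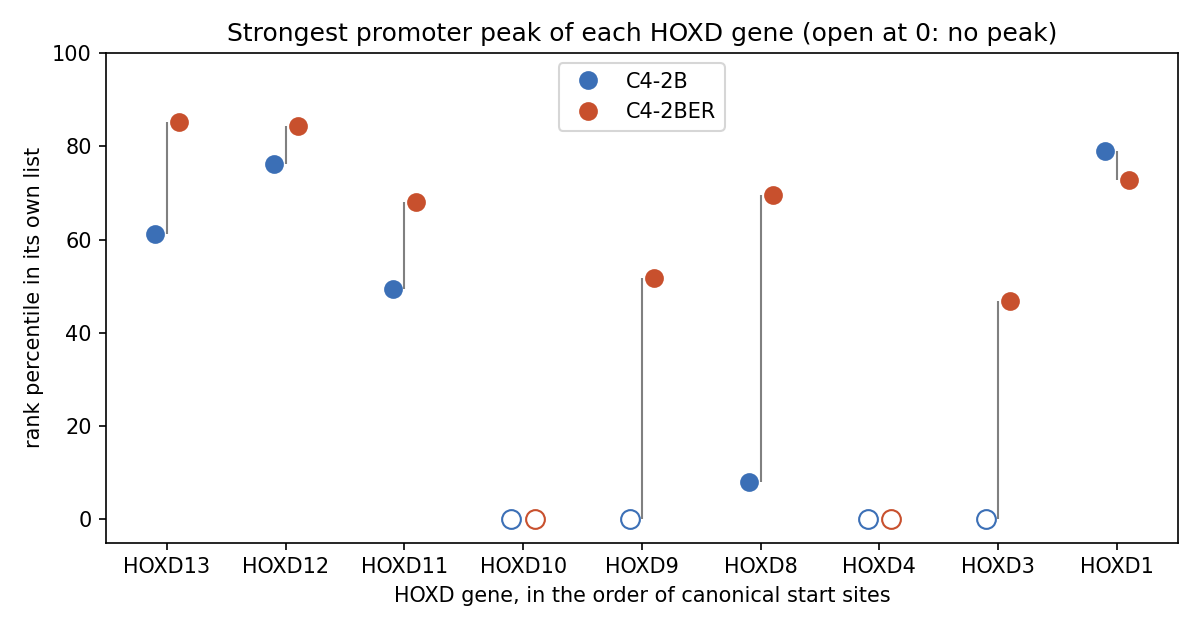
Rank percentile of the strongest promoter peak (y axis) of each HOXD gene (x axis) in the merged C4-2B and C4-2BER lists. HOXD8, HOXD9 and HOXD3 lay between 46.7 and 69.4 in C4-2BER but were weak or unlisted in C4-2B, and HOXD1 was the member that ranked lower in C4-2BER.

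The most posterior members, HOXD13, HOXD12 and HOXD11, had a promoter peak in both lines, for HOXD12 only at the edge of its window. HOXD13, the regulator of digit and genital formation (ENSG00000128714, 176092721 to 176095944), had a C4-2B interval at 176092667 to 176093573 and 2 C4-2BER intervals at 176092317 to 176092964 and 176093126 to 176093557. The strongest summit lay 566 bp after the start site in C4-2B, with 51 reads, and 65 bp after it in C4-2BER, with 87 reads. The peaks stood at rank percentiles 61.2 and 85.2. At summits of like position the ratio was uneven. Next to the start site C4-2B had 46 reads, and C4-2BER was 2.26 times as high at equal depth (95% interval 1.57 to 3.31). At the summit further into the gene, in the coding sequence, C4-2BER had 55 reads against 51 and the ratio was 1.29 (0.865 to 1.93). These intervals are exact binomial and cover counting error only.

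The promoter window of HOXD12, a limb-patterning gene, was reached by a site about 2 kb before the gene (176097282 to 176098160), between HOXD13 and HOXD12. The summit had 67 C4-2B reads, or 56.0 at the lower depth, and 79 C4-2BER reads. The ratio of 1.41 (95% interval 1.01 to 1.98) was just above 1. The site ranked 76.3 and 84.3, at near-equal −log10 p of 40.2 and 41.5. No interval lay nearer to the HOXD12 start site in either list.

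At HOXD11, which with HOXA11 patterns the forearm and kidney, the C4-2B interval of 608 bp ended before the canonical start site (176107280), and the C4-2BER interval of 960 bp (176106529 to 176107488) ran across it. Both lists had a pair of summits there. The summit nearer the start site had 31 C4-2B and 53 C4-2BER reads, a ratio of 2.05 (95% interval 1.29 to 3.30). The farther summit held 21 and 55 reads, a ratio of 3.13 (1.86 to 5.46). The strongest summits were thus different ones, at ranks 49.4 and 68.1.

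HOXD10 and its surroundings were the part of the cluster with C4-2B-only sites. HOXD10, a posterior gene used in the lumbar spinal cord and limb, had no peak within 2000 bp of its coding start site (176116778) in either list. In C4-2B, an interval at 176111287 to 176111556, in an exon of HOXD10 transcripts without a defined coding sequence, had 28 reads and ranked 43.8. A second C4-2B interval, at 176119023 to 176119243 in the coding sequence, had 12 reads and ranked 7.31. At C4-2BER depth these are 23.4 and 10.0 reads. With the local background of the nearest C4-2BER summit, 22 and 13 reads would have been needed for a listing, so absence of the weaker site from C4-2BER was not detectable at this depth, and the stronger passed that level narrowly. The nearest C4-2BER summits were 4366 and 3627 bp away. The stronger is printed because it is the clearest C4-2B-only site of the cluster. It holds no match to the motifs searched.

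C4-2B-only site in HOXD10, chr2:176111345-176111495, plus strand: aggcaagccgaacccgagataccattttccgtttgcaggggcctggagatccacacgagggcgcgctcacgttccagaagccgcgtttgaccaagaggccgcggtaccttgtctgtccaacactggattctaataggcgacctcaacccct

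HOXD9 and HOXD3 were the members whose promoter state differed between the lines. HOXD9, which acts in the upper limb and lumbar region (ENSG00000128709, 176122719 to 176124937), had no interval in C4-2B within its promoter window, and the nearest C4-2B summit lay 3627 bp away from the first HOXD9 site. C4-2BER had 3 intervals there, covering 823 bp. They lay at the start site itself (16 reads), in the coding sequence 564 bp after it (29 reads, rank 51.7) and in the intron 962 bp after it (22 reads). At C4-2B depth they would hold 19.1, 34.7 and 26.3 reads, and 8 would have sufficed at the background of the nearest C4-2B summit.

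HOXD8 (ENSG00000175879, 176129694 to 176132695) was listed in both lines, but with a weak peak in C4-2B. There, 2 intervals of 200 and 272 bp held 13 reads each, and the stronger ranked 7.95. C4-2BER had an interval of 1046 bp over the same place (176129927 to 176130972) with summits of 43 and 48 reads, at rank 69.4. At equal depth the 2 summits were 3.96 times (95% interval 2.09 to 8.02) and 4.42 times (2.36 to 8.89) as high as in C4-2B. The second of these was the highest ratio of the 11 shared sites. A further C4-2BER-only interval at 176129491 to 176129821 had its summit 53 bp before the canonical start site and held 35 reads. C4-2B thus had no listed peak over the HOXD8 start site, whereas C4-2BER did. All C4-2BER intervals at HOXD9 and HOXD8 also lay inside HOXD-AS2, a long noncoding gene on the opposite strand (176121611 to 176137098), and ATAC-seq does not tell the strands apart.

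The HOXD8 start site and the HOXD9 intron are shown because they are C4-2BER-only sites at member promoters. Capitals mark motif matches. The HOXD8 stretch ends just before the first annotated HOXD8 start site and holds 16 CpGs in 117 bases, with no match. In HOXD9 the run of capitals joins an overlapping PBX-HOX match (TGATTNAT) and posterior HOX match (CAATAAA, here on the minus strand).

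HOXD8 promoter, chr2:176129577-176129693, plus strand: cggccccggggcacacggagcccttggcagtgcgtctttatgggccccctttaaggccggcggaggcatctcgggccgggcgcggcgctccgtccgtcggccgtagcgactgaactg
HOXD9 intron, chr2:176123606-176123756, plus strand: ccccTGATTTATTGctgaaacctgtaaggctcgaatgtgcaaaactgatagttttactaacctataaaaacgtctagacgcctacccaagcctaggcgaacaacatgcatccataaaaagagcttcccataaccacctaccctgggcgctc

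HOXD3 and HOXD4, anterior genes of the hindbrain and neck, overlap, since the long HOXD3 transcripts start before HOXD4 and run past it. HOXD4 (176151550 to 176153226) had no interval in its gene body or promoter window in either list. HOXD3 (176136612 to 176173102) had 3 C4-2BER-only intervals in its promoter windows, at 176136332 to 176136587 by the distal start site (18 reads), at 176157680 to 176158043, 578 bp after the canonical one (22 reads, rank 46.7), and at 176158854 to 176159129 (13 reads). The interval by the distal start site also lay inside HOXD-AS2. C4-2B had no interval in those windows. The weakest of the C4-2BER-only intervals, with 13 reads, would hold 15.6 at C4-2B depth, where 10 were needed. It ranked 6.37 in its list.

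Inside the long HOXD3 transcripts, a shared site at 176140317 to 176141260 was of like height in both lines. There were 49 C4-2B and 42 C4-2BER reads, a ratio of 1.03 (95% interval 0.663 to 1.58). A C4-2BER-only site lay 3999 bp before MIR10B, a microRNA gene of the cluster (176146073 to 176146476, 22 reads, rank 50.5). This intronic site and the one furthest into HOXD3 are shown because each is C4-2BER-only and holds a posterior HOX match. The second also holds a PBX-HOX match on the minus strand.

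HOXD3 intron before MIR10B, chr2:176146229-176146379, plus strand: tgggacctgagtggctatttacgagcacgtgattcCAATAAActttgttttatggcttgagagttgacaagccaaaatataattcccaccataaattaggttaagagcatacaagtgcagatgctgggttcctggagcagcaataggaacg
HOXD3 intron after the canonical start site, chr2:176158953-176159103, plus strand: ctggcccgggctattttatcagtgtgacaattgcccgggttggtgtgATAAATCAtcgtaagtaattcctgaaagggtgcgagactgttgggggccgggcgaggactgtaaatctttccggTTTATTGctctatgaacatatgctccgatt

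HOXD1, the most anterior member (ENSG00000128645, 176188668 to 176190907), was the exception among the promoters. Its summit lay 40 bp before the start site in C4-2B, with 50 reads, and 60 bp before it in C4-2BER, with 36. It was the strongest C4-2B peak of the region (rank 78.9) and ranked 72.8 in C4-2BER. The ratio at equal depth was 0.861 (95% interval 0.545 to 1.35), so counting error alone spans 1.

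The long noncoding genes between HOXD3 and HOXD1 went both ways. HAGLR runs antisense from near the HOXD1 start site, and HAGLROS lies within it on the opposite strand. The HOXD1 promoter peaks of both lists also lay inside HAGLR. A C4-2BER-only site in an exon of HAGLR (176174536 to 176175390) was the strongest line-only site of the region, with 48 reads, a −log10 q of 25.7 and rank 75. It lay 3072 bp from the nearest C4-2B summit, which was in the HAGLROS exon (176178037 to 176178904), the one shared site whose 95% interval lay below 1. The HAGLROS site was a single C4-2B interval of 868 bp with 44 reads at its top, and 2 short C4-2BER intervals of 455 bp in all, with 21 and 19 reads. At summits of like position the ratios were 0.811 (95% interval 0.443 to 1.46) and 0.517 (0.285 to 0.904). The strongest peak ranked 69.6 (C4-2B) and 23.8 (C4-2BER). The pair is printed as the strongest C4-2BER-only site and the shared site with the lowest ratio. The capitals in HAGLROS mark an E-box (CAGCTG). A PBX-HOX match of this site (176178391 to 176178398) lies just outside the printed bases.

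HAGLR exon, chr2:176175036-176175186, plus strand: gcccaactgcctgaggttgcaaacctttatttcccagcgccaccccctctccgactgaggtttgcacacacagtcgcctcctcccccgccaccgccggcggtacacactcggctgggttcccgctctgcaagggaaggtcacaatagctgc
HAGLROS exon, chr2:176178411-176178561, plus strand: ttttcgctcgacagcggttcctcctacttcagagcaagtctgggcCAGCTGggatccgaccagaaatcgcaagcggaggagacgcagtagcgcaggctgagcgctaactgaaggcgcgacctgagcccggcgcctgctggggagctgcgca

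On the EVX2 side the 4 sites were in both lists. The site after the 3′ end of EVX2 (176077063 to 176077329) had 35 C4-2B and 29 C4-2BER reads, a ratio of 0.991 (95% interval 0.585 to 1.67). A site over the EVX2 gene (176079931 to 176080735) had a ratio of 1.34 (0.9 to 1.99) at its strongest summit. At its other summit, with 27 C4-2B and 39 C4-2BER reads, the ratio was 1.73 (1.03 to 2.94), which lay above 1. Between EVX2 and HOXD13, 2 sites had ratios of 1.79 (0.818 to 4.08) and 1.26 (0.775 to 2.07). At the strongest summits of the 4 sites the interval spanned 1.

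At each shared site the strongest summit of each list was compared. At HOXD13, HOXD11 and HAGLROS these summits lay at different positions in the lines. Over the 11 shared sites, the ratio of summit reads at equal depth was above 1 in 8 (median 1.34, range 0.571 to 4.42). Over all 91160 shared sites of the genome it was above 1 in 39.8%, with a median of 0.9 and quartiles of 0.639 and 1.14. The 95% interval left out 1 at 5 sites. C4-2BER was the higher at HOXD13, HOXD12, HOXD11 and HOXD8, and the lower at HAGLROS. When single summits within 100 bp of each other were paired, 12 of 16 were higher in C4-2BER, with a median of 1.38. Of these pairs, the 95% interval lay above 1 at 7 and below 1 at 1. Some pairs lay in the same interval, as at HOXD11, so they are not separate sites. Genome-wide shares were not computed for such pairs or for 95% intervals that leave out 1.

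The local background, which macs2 by default takes over 10 kb around a summit, peak included, was also higher in C4-2BER. At equal depth it was higher at 11 of 11 shared sites, by a median of 1.69 times (range 1.19 to 3.18), with a median of 1.00 and an upper quartile of 1.1 over all shared sites of the genome. Of all shared sites, 37.1% had a higher background in C4-2BER. At HOXD8 the 10 kb held 139 C4-2B and 370 C4-2BER reads, and at HOXD11 211 and 518. The deposited fold had a median of 5.92 (C4-2B) and 5.00 (C4-2BER) here, and of 6.49 and 5.93 over the whole lists. The part of the background in the results above was not tested.

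**Figure D3:**
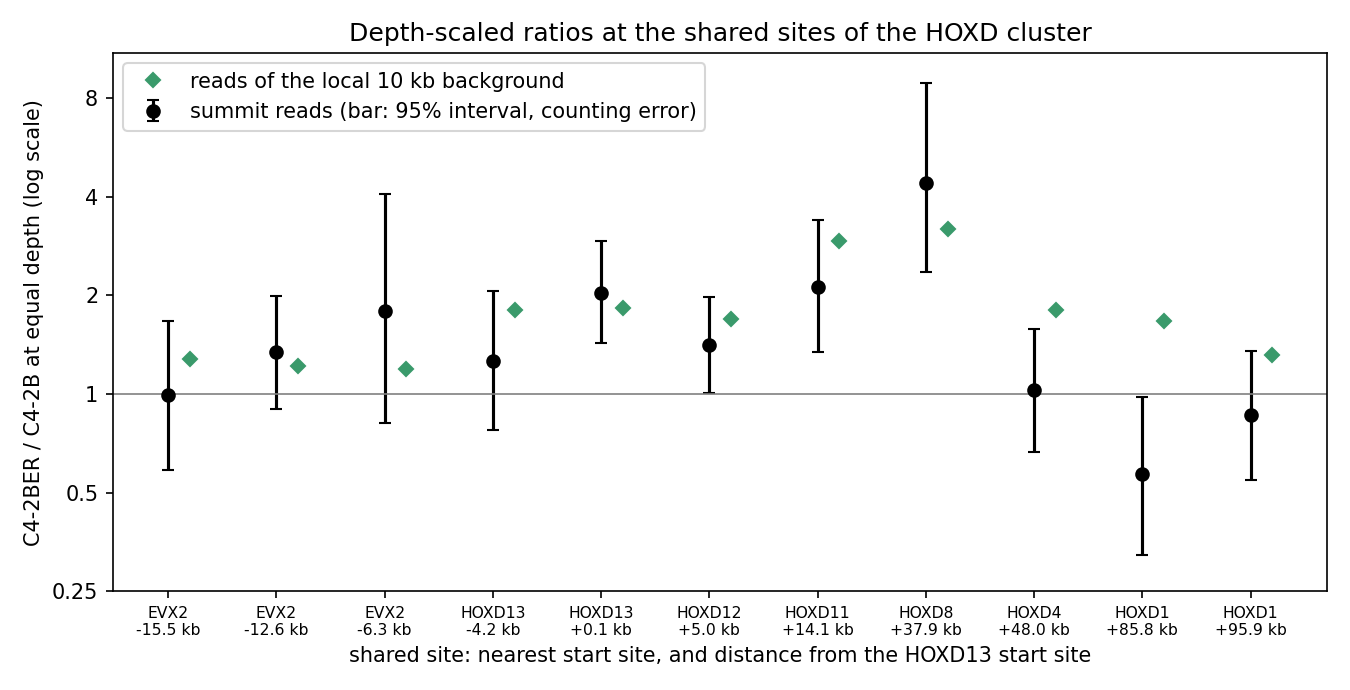
Ratio of C4-2BER to C4-2B at equal depth (log y axis) at the 11 shared sites in chromosomal order (x axis): black points are summit reads with 95% counting intervals, green diamonds the reads of the 10 kb around. Ratios of the strongest summits were highest at HOXD8 (4.42) and HOXD11 (2.12). At HAGLROS (0.571) the strongest summit was lower although the background was higher. At HOXD13, HOXD11 and HAGLROS the strongest summits of the lines lay at different positions.

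The 9 C4-2BER-only sites held from 13 to 48 reads, which is 15.6 to 57.4 reads at C4-2B depth. The nearest C4-2B backgrounds would have called for 8 to 11 reads, so each was at least 1.56 times that level. The C4-2B summit that gave the background lay up to 18326 bp away. Of these 9 sites, 5 had a −log10 q of at least 10, a share near the 53.7% of the whole C4-2BER list. Sites of the region differed in base composition. Within 100 bp of the summit, the median GC content was 69.2% at the 11 shared sites (range 39.3 to 78.6) and 59.2% at the 9 C4-2BER-only sites (44.8 to 73.6).

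Consensus motifs were searched on both strands within 100 bp of the strongest summit of each site, in each line. The posterior HOX match CAATAAA was at 4 of the 20 sites of C4-2BER and 1 of the 13 of C4-2B, against 4.86% and 5.45% of all intervals of the lists. Of those 4, 3 were C4-2BER-only (by HOXD9, MIR10B and HOXD3) and 1 lay between EVX2 and HOXD13. The PBX-HOX match TGATTNAT was at 2 and 1 sites, against 2.55% and 2.53%. Those of C4-2BER were C4-2BER-only (by HOXD9 and HOXD3), and that of C4-2B was the shared HAGLROS site. The forkhead match TGTTTAC was at 2 and 1 (7.48% and 9.79% of the lists) and the E-box CAGCTG at 0 and 2 (13.9% and 13.7%). Both E-box matches also lay inside C4-2BER intervals, at HOXD13 (176093126 to 176093557) and HAGLROS (176178404 to 176178652). Neither interval held the strongest C4-2BER summit of its site, so these were not searched, and the 0 does not mean closed E-boxes in C4-2BER. The CTCF consensus, the homeobox core TAATTA and the androgen response element had 0 matches in either line, at list shares of 3.29% and 2.53%, 3.22% and 3.28%, and 0.585% and 1.56%. These counts are too small to tell a share from that of the list, a match is not a bound site, and no match says only that these letters are not in the window.

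To see how HOXD compared with the other clusters, the same counts were taken over HOXA, HOXB and HOXC with 50 kb either side. With these flanks HOXD was the least open of the 4 by covered bases in both lines, at 3.69% (C4-2B) and 5.58% (C4-2BER) of the region. This order depended on the flanks, since without them HOXB covered a smaller share than HOXD in C4-2BER. Without flanks, C4-2B and C4-2BER covered 5507 and 8897 bp at HOXD and 11473 and 15112 bp at the longer HOXB. They covered 9244 and 13974 bp at HOXA, and 13612 and 13559 bp at HOXC. With flanks, the C4-2BER to C4-2B ratio of covered bases was 1.51 for HOXD and 1.53 for HOXA, against 1.07 for HOXB and 1.02 for HOXC. Line-only intervals numbered 2 (C4-2B) and 9 (C4-2BER) at HOXD, 5 and 12 at HOXA, 5 and 14 at HOXB, and 12 and 13 at HOXC. The median rank difference of promoter peaks was 24.0 points for HOXD, 7.33 for HOXB, 5.58 for HOXC and 2.17 for HOXA. Ratios of summit reads at shared sites were above 1 in 13 of 14 at HOXA (median 1.69), 18 of 20 at HOXC (1.33), 16 of 29 at HOXB (1.07) and 8 of 11 at HOXD (1.34), so HOXD did not stand apart on this measure. No difference between clusters was tested.

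**Figure D4:**
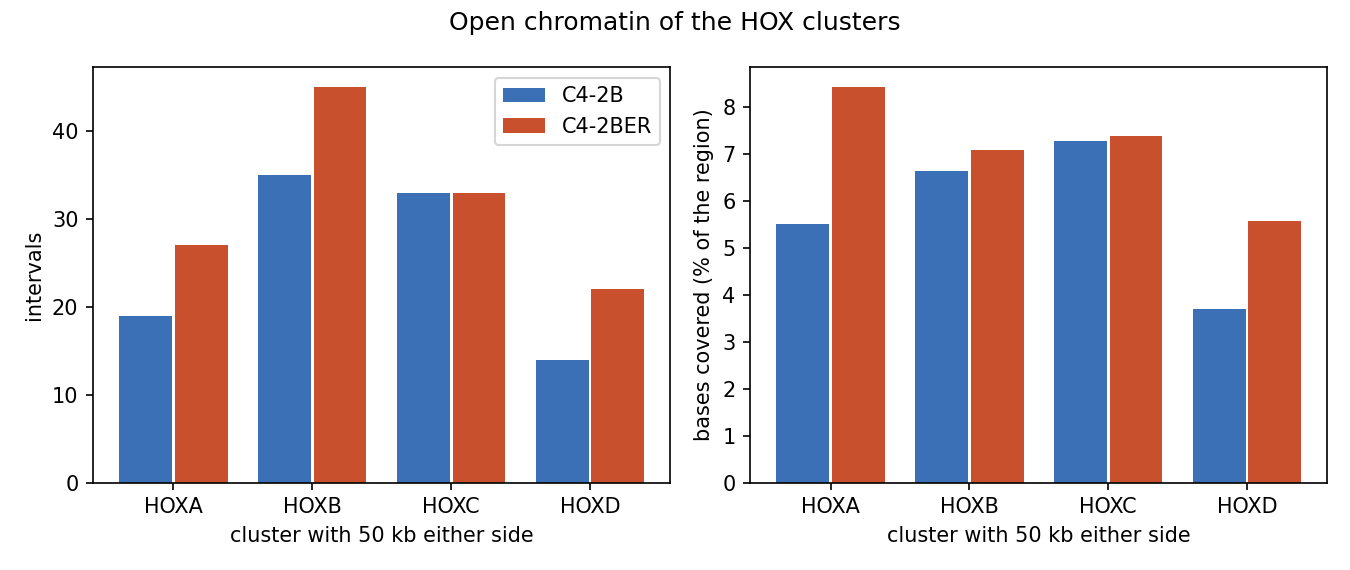
Number of intervals (left) and percent of bases covered (right) in each HOX cluster with 50 kb either side, for the merged list of each line. HOXD had 14 and 22 intervals, the fewest of the 4 clusters in either line.

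Paralogues, the genes of the same number in other clusters, did not share the HOXD states in full. HOXD9 was open in C4-2BER only, whereas HOXA9, HOXB9 and HOXC9 were open in both lines. HOXD3 was open in C4-2BER only, and HOXA3 and HOXB3 in both, with HOXB3 at rank 6.08 in C4-2B and 53.3 in C4-2BER. HOXD10 had no peak, and HOXA10 and HOXC10 had one in both lists. For HOXD4, which had none, HOXA4 and HOXC4 were open in both and HOXB4 in C4-2BER only. The pattern of HOXD8, a weak C4-2B peak and a middling C4-2BER peak, was also that of HOXB8, at ranks 12 and 62.3, but not of HOXC8, at 78.3 and 81.1. Of the 39 HOX genes, 4 had a promoter peak in C4-2BER only, HOXD3 and HOXD9 among them.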

How the data were processed

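ATAC-seq was performed on 2 libraries each of C4-2B and C4-2BER. According to the methods of the study, adapters were trimmed with cutadapt, Bowtie2 placed the reads on hg38, and those of low mapping quality or marked as duplicates by Picard were dropped. Replicates were merged and macs2 (version not given in the sources used here) called peaks with reads shifted by 100 bp and extended to 200 bp. The shift is printed without a minus sign, and with a positive shift summits would lie away from the cut sites. Which sign was used could not be settled here, so distances to start sites and motif windows refer to summits as deposited. Each of the 2 deposited lists gives intervals with summits. The deposited fold (a ratio with 1 added to both terms), −log10 p and −log10 q are those of macs2, and q is adjusted within its list. The deposited score was not used, and the other deposited column is the summit offset in bp. No interval ended beyond the hg38 chromosome lengths (0 of both lists).

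Each interval was counted once, by its summit of highest −log10 p. Fold and p-value together fix the summit reads and the background, and whole reads solved 100% of summits with an error of at most 0.000259 in −log10 p. This step was tested on simulated data. The depth is about 30200000 and 25200000 reads if macs2 used its human genome size of 2700000000 bp. The lowest listed summit held 8 and 7 reads, and weaker sites are absent from the lists. Annotation was GENCODE release 44, and sequences are from hg38. Intervals of ratios are exact, from both read counts, and cover counting error only. A required read number is the lowest that reaches the smallest deposited −log10 p (2.88 in C4-2B, 2.97 in C4-2BER) at the background of the nearest summit.

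All 9 members are named, as are other genes of the region and the HOX genes of the other clusters. The members, lists and measures were chosen with earlier results of these data known. Analyses used Python 3.11.15 with scipy 1.17.1. The alternatives were stricter lists, equal list lengths, equal depth, other overlap rules, flanks and promoter definitions, and a wider motif window. With 1 merged list per line there is no SD and no test.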

Additional observations from a re-analysis of the deposited data

How the results depend on the processing

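No paired analysis was possible because replicates were merged before peaks were called, and for the same reason no library could be left out. The number of intervals, the covered bases, the promoter states and the number of members that ranked higher in C4-2BER stayed within 1.5 times of the values given under each alternative tried for them. At −log10 q ≥ 10, for instance, C4-2B had 10 intervals and C4-2BER 15. With promoters of 1000 bp, HOXD12 no longer had a peak. Then 4 members had one in both lists and 5 ranked higher in C4-2BER. At −log10 q ≥ 5 or ≥ 10, and with lists cut to equal length, promoter peaks in C4-2BER only numbered 3, since the weak C4-2B peaks at HOXD8 drop out by construction.

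Line-only intervals depended more on the setting. C4-2B-only intervals numbered 1 at −log10 q ≥ 5 and 1 with equal numbers of top peaks. With a reciprocal overlap of at least 50% they were 6 in C4-2B and 14 in C4-2BER, and with summits within 200 bp they were 4 in C4-2B and 12 in C4-2BER, as stricter rules give by construction. When a line-only interval was kept only where as many reads would have been listed in the other line, an alternative chosen after seeing the data, 1 was left in C4-2B and 9 in C4-2BER. Scaled down to the C4-2BER depth, C4-2B had 14 intervals. When motifs were searched within 250 bp of summits, matches were at the following numbers of the 13 C4-2B and 20 C4-2BER sites: CTCF 1 and 1, PBX-HOX 2 and 3, posterior HOX 1 and 5, homeobox 2 and 1, forkhead 1 and 2, androgen response element 0 and 0, and E-box 3 and 1. At that width 13.1% and 12.3% of all intervals of the C4-2B and C4-2BER lists held the posterior HOX match. The list shares were 2.69% and 3.47% for CTCF, 7.35% and 7.14% for PBX-HOX, and 12.1% and 11.6% for homeobox. They were 14.4% and 12.2% for forkhead, 2.08% and 1.03% for the androgen response element, and 26.6% and 27.3% for the E-box. Sites below 8 reads in C4-2B or 7 in C4-2BER were not detectable.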
